A study of Homo sapiens with 5 samples.

Results

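APOE, the gene of apolipoprotein E, and the ATP-binding cassette (ABC) transporter genes ABCA7, ABCA10, ABCC6, ABCG2 and ABCG4 were followed in TC28a2 cells. These 6 genes were taken by symbol from the 2694 genes in the deposited files. They were chosen because their values differed between the media, so the differences between the media below are a description, and no test is given for them. TC28a2 is an established line of human chondrocytes from costal cartilage, and the study used it to look for RNAs that change when chondrocytes become hypertrophic. Cells were kept in growth medium (GM, n = 2 libraries) with 10% fetal bovine serum, or in hypertrophic medium (HM, n = 3 libraries), and total RNA was sequenced on day 5. HM held 1% serum, 1% ITS, BMP-2 at 100 ng/ml, GDF-5 at 10 ng/ml, the thyroid hormone T3 at 1 µM, ascorbic acid at 50 µg/ml, dexamethasone at 10 nM and β-glycerophosphate at 10 mM, so the media differed in serum and in all these agents at once and their effects cannot be told apart. All libraries came from this 1 cell line. The study's methods call replicates biological in general terms. Neither they nor the labels say which cultures these libraries came from, so the p-values measure the spread between these libraries.

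Apolipoprotein E is a secreted protein that coats lipid particles, takes up cholesterol and phospholipid released by cells, and binds lipoprotein receptors and heparan sulfate at the cell surface. ABC transporters are membrane proteins that use ATP to move lipids, drugs, metabolites or ions. Transporters of the ABCA and ABCC families carry both ATP-binding domains in a single chain, and the shorter ABCG proteins pair up to work. Release of cholesterol to lipoproteins is classically carried out by ABCA1 and ABCG1, whose genes, like APOE, are targets of the sterol-sensing liver X receptors (LXR).

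APOE is at chr19:45409048-45412650 of GRCh37, plus strand, and its canonical GENCODE transcript has 4 exons. Because APOE had the largest difference of the 6 genes, the sequence before its start is shown. It comes from RefSeq on GRCh38.p14, plus strand, chr19:44905546-44905785, and runs from 250 to 11 bases upstream of the start. Capitals mark matches to the GC box GGGCGG on either strand, 72 and 51 bases upstream, and to AGAACA, the core of a glucocorticoid receptor site, 108 bases upstream.
APOE: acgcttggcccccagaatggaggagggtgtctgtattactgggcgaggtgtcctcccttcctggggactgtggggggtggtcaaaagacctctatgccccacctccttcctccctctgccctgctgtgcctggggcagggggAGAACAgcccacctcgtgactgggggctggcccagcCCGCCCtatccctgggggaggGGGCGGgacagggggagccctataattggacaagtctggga
Over the 250 bases before the start in all 35116 RefSeq windows, 42.6% held the GC box and 12.4% held AGAACA on either strand. In the windows at the canonical starts of the other 5 genes, the GC box was matched once each in ABCA7 and ABCG4, and AGAACA in none. The count depends on the start used, as windows at other annotated starts of ABCG2 and ABCG4 held GC boxes. AGGTCA, a core site of nuclear receptors, held by 12.1% of all windows, was matched once in ABCG2 and in none of the other 5 genes. These matches are letters in a window and were not tested for binding.

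ABCC6 has 2 partial copies in the genome, the pseudogenes ABCC6P1 and ABCC6P2, and their exons are shown because reads from them can be shared with ABCC6. ABCC6 spans chr16:16243422-16317379 of GRCh37 (minus strand). Of the 31 exons of its canonical transcript, exons 1 to 9 had a match in ABCC6P1 and exons 1 to 4 in ABCC6P2. Coding exon 3 follows, from chr16:16313679-16313804 (ABCC6, minus strand), chr16:18586083-18586208 (ABCC6P1, plus strand) and chr16:14914917-14915042 (ABCC6P2, minus strand) of GRCh37. Capitals mark bases that differ from ABCC6.
ABCC6: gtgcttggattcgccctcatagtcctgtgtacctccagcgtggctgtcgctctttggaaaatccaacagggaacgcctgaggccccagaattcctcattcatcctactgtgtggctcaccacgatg
ABCC6P1: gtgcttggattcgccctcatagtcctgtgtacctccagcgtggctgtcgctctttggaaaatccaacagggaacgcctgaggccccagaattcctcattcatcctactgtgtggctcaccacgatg
ABCC6P2: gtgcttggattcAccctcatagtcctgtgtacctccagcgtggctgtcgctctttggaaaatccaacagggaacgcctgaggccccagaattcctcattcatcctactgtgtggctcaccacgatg
Over these 126 bases ABCC6P1 did not differ from ABCC6, and ABCC6P2 differed at 1 base. Coding exon 9, the last exon with a copy, can be told apart more readily. It is shown from chr16:16295858-16296035 (ABCC6, minus strand) and chr16:18603861-18604038 (ABCC6P1, plus strand), with capitals as above.
ABCC6: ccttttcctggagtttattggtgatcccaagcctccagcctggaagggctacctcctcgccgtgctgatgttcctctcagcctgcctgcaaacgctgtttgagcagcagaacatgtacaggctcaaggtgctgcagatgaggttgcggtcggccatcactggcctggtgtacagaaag
ABCC6P1: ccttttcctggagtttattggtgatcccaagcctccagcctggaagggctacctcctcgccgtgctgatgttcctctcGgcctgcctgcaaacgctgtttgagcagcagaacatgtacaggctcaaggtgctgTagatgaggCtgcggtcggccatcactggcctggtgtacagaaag
There the copies differed at 3 of 178 bases.

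The deposited values are log2-transformed and RLE-normalized gene values, 1 per gene and library. In RLE normalization a library's scale comes from the median of its gene ratios to the average library. All values and differences below are on this log2 scale. The transformation is not named further, so no difference is converted to a fold change, and levels are not compared between genes because the values are not per length. The number of reads behind a value is unknown, and the precision rests on 2 and 3 libraries. The 2694 genes had absolute differences of at least 0.21, and 1707 were higher and 987 lower in HM, so they appear to be the genes that the authors called different. Most of these differences are smaller than the fold change that the study's own rule for calling a gene asks for, so the deposited scale may be compressed (a shrunken log, for example), and a difference of 1 here is not to be read as an ordinary log2 fold change. The median library value was 8.17 to 8.18 in GM and 8.43 to 8.62 in HM. Of the fixed chondrocyte markers, 5 of 15 were listed (SOX9, COL2A1, ACAN, COL9A2 and COL9A3) and all 5 rose in HM (limma, adjusted p from 0.000155 to 0.0027). Over all listed genes 99.0% passed this test and 62.5% rose, so nearly any listed gene passes and nothing is read from the count. SOX9 had an adjusted p of 0.0525 after the libraries were centred on their medians and 0.0590 after quantile normalization (limma). Of 10 hypertrophic markers 3 were listed, of which PTH1R and MMP13 rose and VEGFA fell, by 1.06, 0.70 and 0.78, and MMP13 had an adjusted p of 0.116 after median centring (limma). COL10A1, IHH and RUNX2 were not listed. By qPCR, the study reports higher IHH and COL10A1 mRNA in HM and unchanged RUNX2 mRNA. It also reports loss of COL2A1 and ACAN protein in HM, whereas the values here are RNA.

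In HM, APOE, ABCA7, ABCC6 and ABCG4 were higher and ABCG2 and ABCA10 lower. For each of the 6 genes the GM and HM libraries were fully separated. The same held for 99.0% of all listed genes, 62.5% with higher and 36.5% with lower HM values, so nothing is read from that count. As deposited, APOE alone of the 6 differed by at least 1, but ABCG2 was -1.29 after median centring and -1.34 after quantile normalization. Of all listed genes, 11.8% were higher and 7.05% lower by at least 1 with an adjusted p under 0.05 (limma). RNA of a whole culture was measured, in which more cells with a transcript and more of it per cell cannot be told apart.

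**Figure D1:**
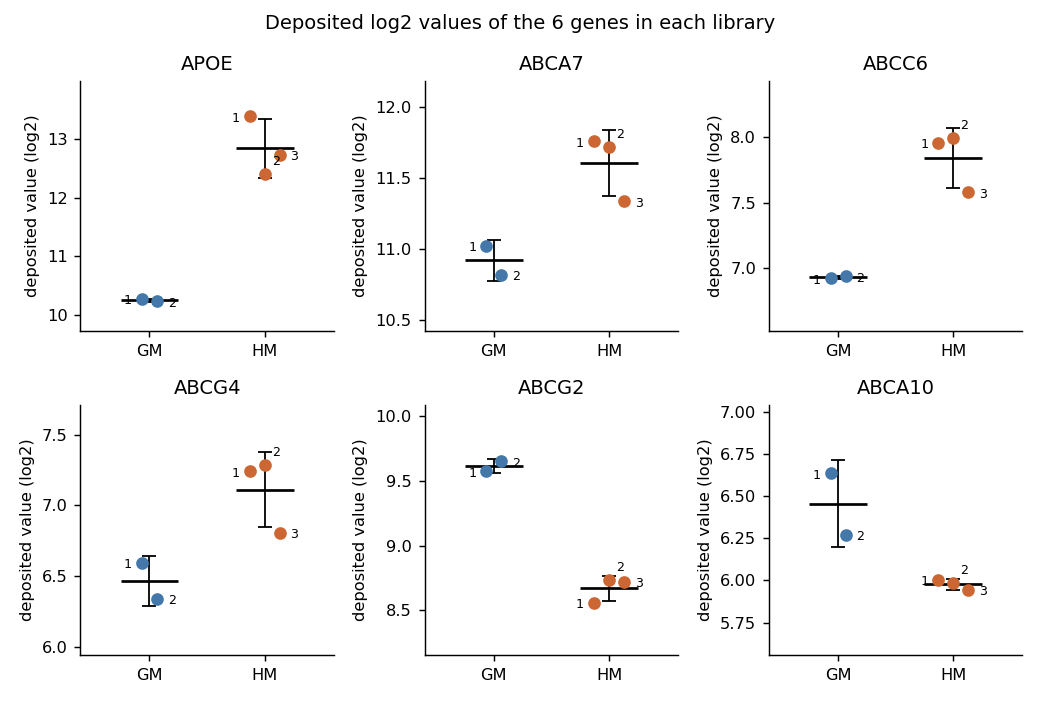
Deposited log2 values (y axis, range set for each gene) of the 6 genes in growth medium (GM, blue) and hypertrophic medium (HM, orange). Each point is 1 library with its replicate number, the line is the mean and the bar the SD (n = 2 and 3). APOE, ABCA7, ABCC6 and ABCG4 sit higher in all HM libraries than in both GM libraries, and ABCG2 and ABCA10 lower.

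APOE was 10.27 and 10.23 in the GM libraries, and 13.39, 12.40 and 12.73 in HM replicates 1, 2 and 3. Replicate 1 was the highest, and even the lowest HM library was 2.13 above the higher GM library. The GM mean was 10.25 ± 0.029 (SD, n = 2) and the HM mean 12.84 ± 0.50 (SD, n = 3). This log2 difference of 2.59 ranked 3 among the 1707 higher genes. It was 2.32 without HM replicate 1. The SD in HM was the widest of the 6 genes, against a median SD of 0.16 over all listed genes.

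The neighbour of APOE, APOC1, encodes the small lipoprotein component apolipoprotein C-I, and it lies 4.85 kb downstream on the same strand. It was 7.86 and 7.99 in GM, and 9.49, 9.11 and 9.33 in HM replicates 1, 2 and 3. As for APOE, HM replicate 1 was highest and replicate 2 lowest. APOC1 rose by 1.39, with a standard error of 0.16 (limma, adjusted p = 0.000144). The value of APOE minus that of APOC1 was 2.41 and 2.24 in GM and 3.90, 3.29 and 3.40 in HM. Only its change of 1.20 between the media is given, since levels are not compared between genes. A common shift of a library leaves this change as it is. A compression of the scale that varies with level would not, here and in each difference between genes below.

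ABCA7 encodes a transporter of phospholipids related to ABCA1 (chr19:1039996-1065571 of GRCh37, plus strand). It was 11.02 and 10.81 in GM, and 11.76, 11.71 and 11.33 in HM replicates 1, 2 and 3. HM replicate 3 was the lowest of its group and lay 0.32 above the higher GM library. The log2 difference was 0.68, close to the median of 0.70 over all higher genes. With each library centred on its median the ABCA7 difference was 0.34.

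ABCG4 encodes a sterol exporter best known from the brain (chr11:119019762-119033362 of GRCh37, plus strand). Its values were 6.59 and 6.34 in GM, and 7.24, 7.29 and 6.81 in HM replicates 1, 2 and 3. The gap between the highest GM library and the lowest HM library was 0.21, the narrowest of the 6 genes, and the log2 difference was 0.64. Centred on library medians, the difference of ABCG4 was 0.30. The profile of ABCG4 over the 5 libraries ran close to that of ABCA7, but genes outside the set ran closer to each of them. The value of ABCA7 minus that of ABCG4 was 4.43 and 4.47 in GM and 4.51, 4.43 and 4.53 in HM, so their difference changed by 0.040 between the media.

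ABCC6 encodes a transporter through which cells release ATP, a source of the mineralization inhibitor pyrophosphate. It was 6.92 and 6.94 in GM, and 7.96, 7.99 and 7.58 in HM replicates 1, 2 and 3. As in ABCA7 and ABCG4, replicate 3 was the lowest HM library, yet it lay 0.64 above GM. The GM mean was 6.93 ± 0.011 (SD, n = 2) and the HM mean 7.84 ± 0.23 (SD, n = 3). The log2 difference was 0.91, and 0.56 with libraries centred on their medians.

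The copies of ABCC6 changed in the same direction. ABCC6P1 was 4.13 and 4.17 in GM and 4.54, 4.56 and 4.42 in HM replicates 1, 2 and 3, and ABCC6P2 was 4.69 and 4.67 in GM and 5.10, 5.04 and 5.00 in HM. Their log2 differences were 0.36 (adjusted p = 0.00555, limma) and 0.37 (adjusted p = 0.00791, limma). They were 0.01 and 0.02 with adjusted p of 0.926 and 0.879 after median centring (limma). After quantile normalization they were 0.42 and 0.40 (adjusted p of 0.00261 and 0.00663, limma), beside 0.71 for ABCC6. The copies match 24.0% and 10.4% of the canonical ABCC6 transcript of 5140 bases, with 99.4% identity in each. Of the matched bases, 8 differ in ABCC6P1 and 3 in ABCC6P2. The longest identical run within an exon was 159 bases for ABCC6P1 and 127 for ABCC6P2. How reads that fit several places were assigned is not given in the sources used here, so the separate values of ABCC6 and its copies are uncertain. The value of ABCC6 minus that of ABCC6P1 was 2.80 and 2.77 in GM and 3.41, 3.43 and 3.16 in HM. This change of 0.55 rests on those uncertain values.

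**Figure D2:**
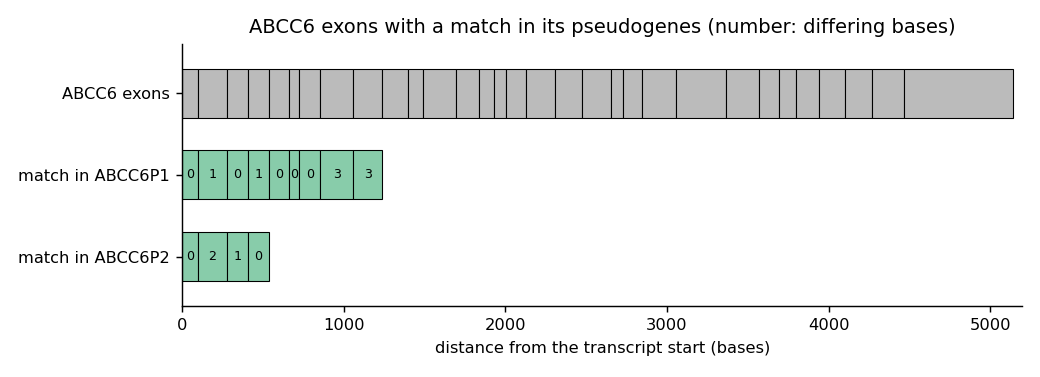
Exons of the canonical ABCC6 transcript along the distance from its start (x axis, bases), with the exons matched in the pseudogenes ABCC6P1 and ABCC6P2 below. Numbers give the bases that differ from ABCC6 in each exon. Exons 1 to 9 match ABCC6P1 and exons 1 to 4 match ABCC6P2, and the rest of the transcript has no match there.

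ABCG2, also called breast cancer resistance protein, exports drugs, urate and porphyrins (chr4:89011302-89152780 of GRCh37, minus strand). ABCG2 was 9.58 and 9.65 in GM, and 8.56, 8.73 and 8.72 in HM replicates 1, 2 and 3. All HM libraries lay at least 0.84 below GM, with little spread in either medium. The mean was 9.61 ± 0.054 (SD, n = 2) in GM and 8.67 ± 0.097 (SD, n = 3) in HM, and the log2 difference of -0.94 ranked 224 among the 987 lower genes. Leaving out any 1 library kept it between -0.98 and -0.89. The paralogs ABCG2 and ABCG4 thus had differences of opposite sign, and the value of ABCG4 minus that of ABCG2 moved from -2.98 and -3.31 in GM to -1.32, -1.45 and -1.92 in HM, a change of 1.59.

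ABCA10 belongs to a cluster of ABCA genes on chromosome 17 and has no well established substrate. It spans chr17:67143355-67240987 of GRCh37 (minus strand). It was 6.64 and 6.27 in GM, and 6.004, 5.98 and 5.94 in HM replicates 1, 2 and 3. The HM libraries lay within 0.061 of each other, whereas the GM libraries differed by 0.36. The log2 difference was -0.48, and it was -0.30 without GM replicate 1 and -0.66 without GM replicate 2. Its exons share 318 bases, or 3.78% of its exonic bases, with ABCA5 on the same strand, a gene that was not listed.

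The order of the HM libraries in each gene was set beside that of the median of all listed genes in the same direction. HM replicate 3 was lowest for ABCA7, ABCC6 and ABCG4, at 0.42, 0.65 and 0.34 above the GM mean. It was also lowest for the median of the higher genes, which was 0.81, 0.74 and 0.59 above the GM mean in replicates 1, 2 and 3. APOE did not follow that order, with 3.14, 2.15 and 2.48 in replicates 1, 2 and 3. For ABCG2 the HM libraries were -1.05, -0.88 and -0.89 from the GM mean, and for ABCA10 -0.45, -0.47 and -0.51, while the median of the lower genes was -0.73, -0.70 and -0.69.

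**Figure D3:**
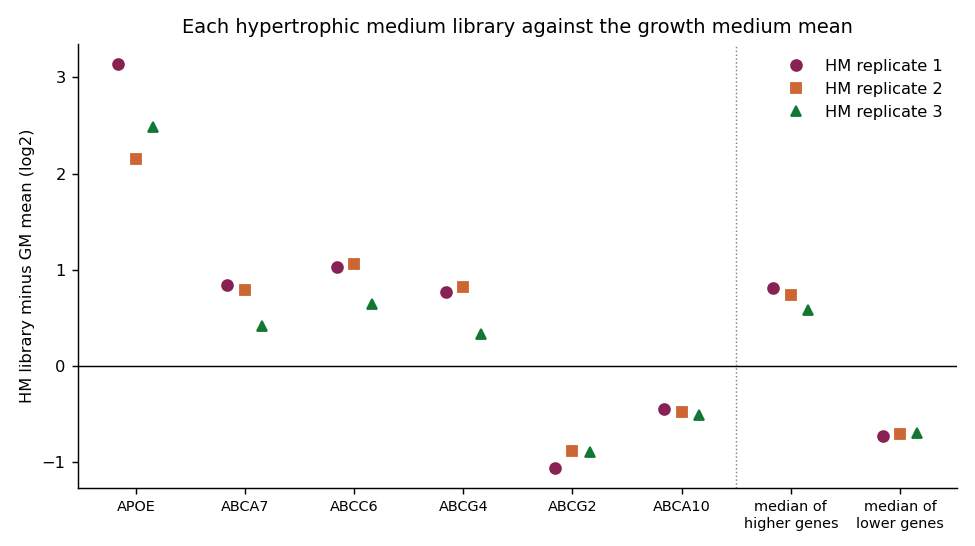
Value of each hypertrophic medium (HM) library minus the growth medium (GM) mean (y axis, log2) for the 6 genes and, right of the dotted line, the median over the 1707 higher and 987 lower genes. Points are libraries. APOE is furthest from 0 in every library, and replicate 3 is lowest for ABCA7, ABCC6 and ABCG4, as it is for the median of the higher genes.

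Centring each library on its median lowered every difference by 0.35, and changed the calls over all listed genes from 1683 higher and 984 lower to 845 higher and 987 lower (limma, adjusted p under 0.05). Under this scaling APOE was 2.24 and ABCC6 0.56 higher, and ABCG2 was -1.29 and ABCA10 -0.83. Quantile normalization gave 2.34 for APOE, 0.33 for ABCA7, 0.71 for ABCC6, 0.50 for ABCG4, -1.34 for ABCG2 and -0.57 for ABCA10. The direction of all 6 genes held under median centring, quantile normalization, the replicate block and the removal of each library, and the size of the ABCA7 and ABCG4 differences under median centring was less than 0.35.

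**Figure D4:**
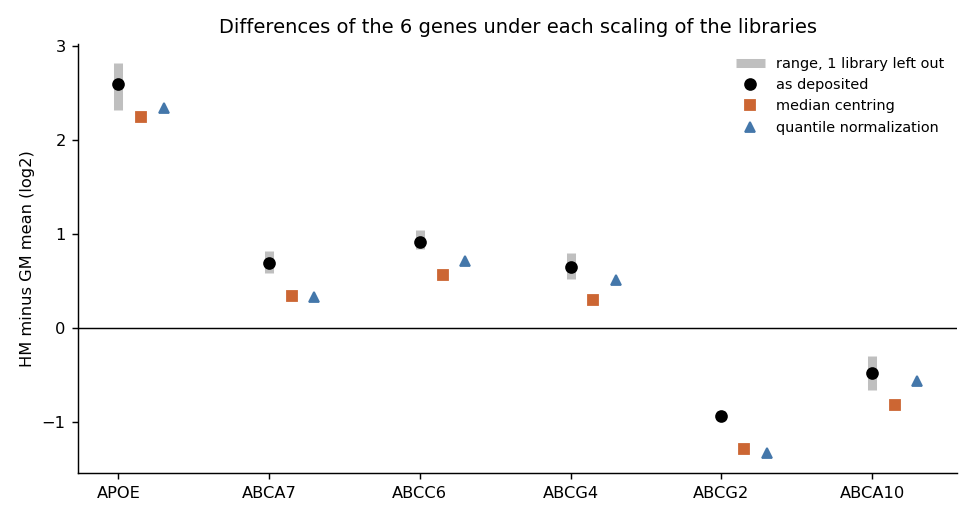
Difference of group means, HM minus GM (y axis, log2), of the 6 genes with the values as deposited (circles), after centring each library on its median (squares) and after quantile normalization (triangles). Grey bars span the values with each library left out in turn. Centring lowers every gene by 0.35 and no gene crosses 0.

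The profiles most like each gene over the 5 libraries were found by Euclidean distance after centring each gene on its own mean. For APOE they were the complement genes C4B and C4A at 0.14 and 0.15 and the Notch target HEY1 at 0.19. C4A and C4B are near-identical paralogs whose separate values are uncertain. For ABCA7 they were FAM102A at 0.052, ITIH4 at 0.075 and the chondrocyte transcription factor gene SOX9 at 0.084, for ABCC6 RUNX3, CHAMP1 and SCAMP4 at 0.053 to 0.087, and for ABCG4 SEZ6L2, ADAMTS7 and TGOLN2 at 0.031 to 0.057. For ABCG2 they were GCNT1, SOCS2 and FGF13 at 0.035 to 0.085, and for ABCA10 PRDM8, CCDC184 and LOC100421517 at 0.087 to 0.097. Within the set, ABCA7 and ABCG4 lay closest to each other, at 0.095, further apart than each was from the genes just named for it.

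Of the 48 ABC transporter genes, these 5 were listed and 43 were not, ABCA1 and ABCG1 among the latter. Whether an unlisted gene changed is not known from these files. The other genes around the 6 were taken from 7 further fixed lists, of which 31 genes were listed besides the 6. They were tested with limma over all 2694 genes, and 25 rose and 6 fell with an adjusted p under 0.05. Over all listed genes 62.5% rose and 36.5% fell by the same rule. After median centring the counts for the 31 genes were 18 and 6, beside 845 and 987 of all 2694 genes. As the listed genes appear to be selected for a difference on these libraries, nearly every listed gene passes. The adjusted p-values and the sizes of listed genes rest on that same selection, so they describe these libraries and are no independent evidence.

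LXR are nuclear receptors that respond to oxysterols and raise genes of lipid efflux and fatty acid synthesis, and LXR partners and targets were the first of these lists. Besides APOE, 8 of its 24 genes were listed. All 8 rose with an adjusted p under 0.05 (limma), beside 62.5% of all listed genes. Their median log2 difference was 0.89, against 0.70 over all higher genes. After median centring, 5 of the 8 passed (limma). The targets ABCA1, ABCG1, MYLIP and SREBF1 were among those not listed. SCD, the stearoyl-CoA desaturase, was 14.68 and 14.68 in GM and 16.12, 16.07 and 16.02 in HM, a rise of 1.39 (standard error 0.11, adjusted p = 2.65e-05, limma). The phospholipid remodelling enzyme gene LPCAT3 rose by 1.09 and the phospholipid transfer protein gene PLTP by 0.89 (adjusted p of 0.000201 and 0.000324, limma), which were 0.70 after quantile normalization and 0.55 after median centring. NR1H3, the gene of LXRα itself, was 9.06 and 8.94 in GM and 9.71, 9.57 and 9.62 in HM, a rise of 0.63 (adjusted p = 0.00196, limma) that was 0.16 with an adjusted p of 0.220 after quantile normalization (limma). NR1H3, the fatty acid synthase gene FASN and MLXIPL, a glucose-sensing factor, rose by 0.55 to 0.63. Their adjusted p was 0.0681, 0.0837 and 0.191 after median centring (limma). After quantile normalization FASN was 0.74 and MLXIPL 0.52 higher (adjusted p of 0.000798 and 0.00608, limma).

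LPL, the lipoprotein lipase, was 10.40 and 10.50 in GM, and 11.91, 11.09 and 10.995 in HM replicates 1, 2 and 3, a rise of 0.88 (adjusted p = 0.00708, limma) that was 0.49 with an adjusted p of 0.0876 after quantile normalization (limma). Like APOE, it was highest in HM replicate 1. LPL is also a marker of fat cells. Of 10 adipocyte markers, LPL and PLIN4 were listed, and their summed level on the log2 scale was 10.64 to 10.74 in GM and 11.20 to 12.11 in HM, whereas PPARG, FABP4 and ADIPOQ were not listed. Such a sum takes the deposited values as plain log2 values and is not per length, so it only orders the libraries, and the gene with the higher values weighs most in it. PLIN4, at 0.63 higher with an adjusted p of 0.0328, had an adjusted p of 0.248 after median centring and 0.201 after quantile normalization (limma). The PLIN4 difference was 0.36 without HM replicate 1, and 0.57 and 0.70 without GM replicate 1 and 2. Of 10 macrophage markers, CD14 and CSF1R were listed, with summed levels of 8.25 to 8.47 in GM and 9.10 to 9.53 in HM, and their differences were opposite in sign (CD14 1.24, CSF1R -0.51). CSF1R had an adjusted p of 0.0251, which was 0.0565 and 0.0922 without GM replicate 1 and 2 and 0.0617 and 0.0564 without HM replicate 1 and 3 (limma), and its difference was -0.86 after median centring. PTPRC and CD68 were not listed, nor was any of 10 hepatocyte markers. The part of these cell type markers in the APOE difference was not tested.

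Of the receptors that bind apolipoprotein E, 6 of 18 were listed, of which 5 rose and 1 fell. LRP1, a large scavenging receptor, rose by 0.92 (adjusted p = 0.00138, limma), or 0.58 after median centring. VLDLR, which takes up triglyceride-rich lipoproteins, was 10.57 and 10.36 in GM and 9.70, 9.69 and 9.73 in HM, and its difference of -0.76 had a standard error of 0.13 (limma, adjusted p = 0.00078), and it was -1.21 after quantile normalization. The receptor genes LRP1 and VLDLR thus differed in direction. The heparan sulfate carrier gene SDC3 rose by 1.36 and the sorting receptor gene SORL1 by 1.07 (adjusted p of 0.000148 and 0.00346, limma), and SDC2 rose by 0.59, with an adjusted p of 0.166 after median centring (limma).

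Of the apolipoprotein genes, 3 of 24 were listed, namely APOE, APOC1 and CLU, whose product apolipoprotein J is a secreted chaperone. CLU was 12.11 and 11.91 in GM and 11.02, 11.10 and 11.37 in HM replicates 1, 2 and 3, and its difference was -0.85 with a standard error of 0.14 (limma, adjusted p = 0.000709). The secreted lipid carriers APOE and CLU were thus opposite in direction.

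Of the genes of sterol export and storage, 5 of 20 were listed, of which 4 rose and 1 fell. LIPG, the endothelial lipase, rose by 1.51 and CYP27A1, a sterol hydroxylase that makes an LXR ligand, by 0.74 (adjusted p of 0.000122 and 0.000516, limma). The difference of CYP27A1 was 0.39 after median centring and 0.37 after quantile normalization. PLTP, given above, was the third of them. LIPC, the hepatic lipase, rose by 0.34 (adjusted p = 0.0382, limma), turned to -0.012 after median centring, and had an adjusted p of 0.109 without HM replicate 1, 0.0551 without HM replicate 2, and 0.0598 and 0.183 without GM replicate 1 and 2 (limma). CAV1, the structural protein of caveolae, was 12.55 and 12.65 in GM and 10.75, 11.30 and 11.78 in HM replicates 1, 2 and 3, and it fell by 1.32 (standard error 0.24, adjusted p = 0.00112, limma).

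ABCC6 acts upstream of extracellular pyrophosphate, and 3 of 16 genes of pyrophosphate and mineral handling were listed. ANKH, which like ABCC6 serves the release of ATP and pyrophosphate, was 10.75 and 10.76 in GM and 12.00, 11.68 and 11.85 in HM, a rise of 1.09 (standard error 0.13, adjusted p = 0.000159, limma). The gene of the calcification inhibitor matrix Gla protein, MGP, rose by 2.41 (standard error 0.40, adjusted p = 0.000762, limma), with 9.82, 8.64 and 10.38 in HM replicates 1, 2 and 3 against 7.20 and 7.21 in GM. NT5E, which makes adenosine from AMP, fell by 0.82 (standard error 0.13, adjusted p = 0.000684, limma), with a difference of -1.27 after quantile normalization. ENPP1, ALPL and SPP1 were not listed.

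For ABCG2, 3 of 18 genes of heme, urate and drug handling were listed. CPOX, an enzyme of porphyrin synthesis, was 12.995 and 13.09 in GM and 12.09, 12.28 and 12.30 in HM, and fell by 0.82 (standard error 0.12, adjusted p = 0.000396, limma). AHR, the dioxin receptor, rose by 0.68 and its target gene CYP1B1 by 0.90 (adjusted p of 0.00267 and 0.000231, limma), or by 0.34 and 0.55 after median centring. AHR and CYP1B1 thus moved opposite to ABCG2.

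Of 30 genes fixed as neighbours or copies of the 6 in the genome, 7 were listed, of which 6 rose and 1 fell. APOC1 and the copies of ABCC6 are given above. ARHGAP45 starts 0.351 kb past the end of ABCA7 on the same strand. ARHGAP45 was 9.85 and 10.01 in GM and 9.48, 9.07 and 9.04 in HM, and it fell by 0.73 (standard error 0.17, adjusted p = 0.00276, limma), opposite to ABCA7. Its difference was -1.14 after quantile normalization. MAP2K6, 170 kb from ABCA10 and on the other strand, rose by 1.30 (adjusted p = 8.95e-05, limma), opposite to ABCA10. BCAM, 84.4 kb from APOE, and XYLT1, 878 kb from ABCC6, rose by 0.96 and 0.93 (adjusted p of 0.000605 and 0.00327, limma), or by 0.62 and 0.59 after median centring.

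**Figure D5:**
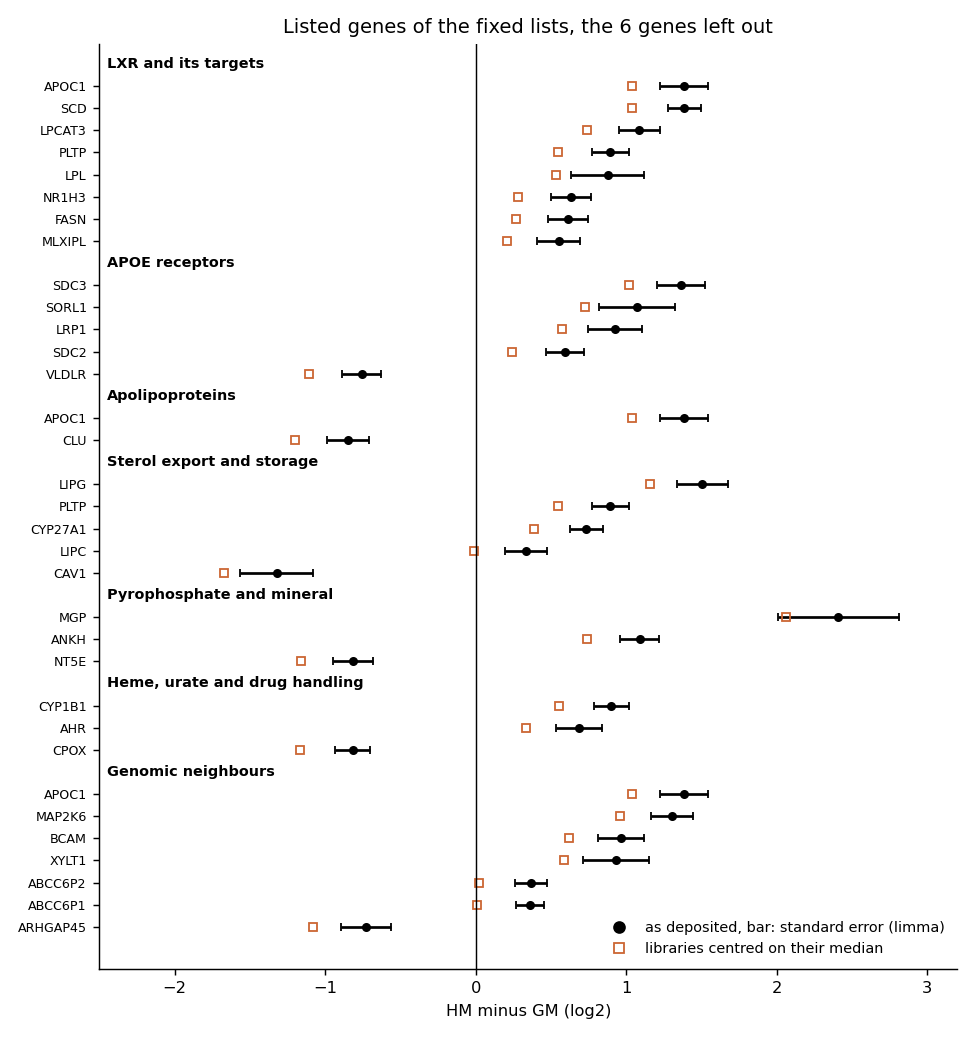
Differences HM minus GM (x axis, log2) of the listed genes of the fixed lists besides the 6 and 1 gene not reported here, grouped by list, with a gene repeated where 2 lists hold it. Black points are the deposited values with standard errors from limma, and open squares the values after centring each library on its median. The LXR genes all lie above 0, and LIPC, ABCC6P1 and ABCC6P2 come to about 0 after centring.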

How the data were processed

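Total RNA libraries of TC28a2 cells in growth medium (n = 2) and hypertrophic medium (n = 3) were used, mapped to their medium by the treatment label and numbered by title. According to the study's methods, the authors trimmed reads, aligned them to hg19 with HISAT2, counted NCBI genes with StringTie, excluded genes with zero counts, and deposited log2-transformed, RLE-normalized values, which are log2 values with no counts. The processing notes in the labels name rn5, TopHat2 2.0.13 and Cuffdiff 2.2.1 instead. The files hold human symbols, and the study's methods were followed. The libraries were prepared with a stranded kit, and counting by strand is not given in the sources used here.

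Differences are hypertrophic minus growth medium means. Genes other than the 6 were tested with limma 3.58.1 (lmFit, eBayes with trend, R 4.3.3), without a block, with Benjamini-Hochberg adjustment over 2694 genes and a threshold of 0.05. The branch of the design for log2 values applied, and alternatives that need counts or linear values were not run. The fit was tested on simulated data. The 6 genes, the 8 gene lists, the marker lists and the motifs were chosen with earlier results of these data known. Named genes were all listed genes of a list of up to 8 listed genes, and for each of the 6 genes the 3 nearest profiles. In the list of receptors, 1 gene enters the counts and is not reported here. Members of these lists that are named as not listed, and comparisons between named genes, were chosen afterwards. Matching list genes by older symbols added none.

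Coordinates are from GENCODE 44 lifted to GRCh37, the assembly of hg19. Promoter windows are from RefSeq on GRCh38.p14, found for all 6 genes, and the window at the canonical start was used. ABCC6 exons were aligned to the pseudogene loci with blastn 2.17.0 (word size 11). The alternatives were median centring, quantile normalization, each library left out, the replicate number as a block, eBayes without a trend, and omission of the 25% of genes with the lowest means. Depth is unknown, so no counting error or detection floor is given.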

Additional observations from a re-analysis of the deposited data

How the results depend on the processing

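The 6 genes kept their direction under median centring, quantile normalization, the replicate block and each library left out. Their differences moved by more than the replicate spread after median centring for ABCA7 (0.34), ABCC6 (0.56), ABCG4 (0.30), ABCG2 (-1.29) and ABCA10 (-0.83), and after quantile normalization for ABCA7 (0.33), ABCC6 (0.71) and ABCG2 (-1.34). With 1 library left out, ABCA10 ranged from -0.66 to -0.30 and APOE from 2.32 to 2.81. LIPC reversed to -0.012 after median centring. Subtracting a common shift lowers every difference, and median centring assumes no net change of genes that appear to be selected for change. The calls for the 31 other genes of the lists were 18 to 25 higher and 6 lower over all alternatives. The replicate numbers did not pair the libraries (correlation of the replicate 1 minus replicate 2 differences across genes -0.0253). With the replicate number as a block the counts were 25 and 6, and no call on a named gene was lost. Without the 25% of genes with the lowest means, the calls over all genes went from 984 to 653 lower, since fewer genes were tested. CSF1R and PLIN4 lost their call in several alternatives, with adjusted p up to 0.0922 and 0.248 (limma). Depth is unknown from these values, and the number of libraries limits the precision.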
